A study of Mus musculus with 18 samples.

Results

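The comparison described here sets microglia and macrophages of aged mice that had received bexarotene against those of young mice that had received vehicle, and asks how far the treated old cells remained from the untreated young cells. It rests on 6 of the 18 libraries of the series, the 3 labelled as aged with bexarotene and the 3 labelled as young with vehicle, chosen by their labels alone. All mice were male and wild type. The young vehicle mice were 2 to 4 months old and received 3% DMSO in saline. The aged bexarotene mice were 18 to 20 months old and received bexarotene at 5 mg/kg into the peritoneum, dissolved in 3% DMSO. Young bexarotene mice and aged vehicle mice, also with 3 libraries each, are used where they show whether a gene went with age or with the drug. None of these 12 libraries came from mice with a stroke. Per the labels, dosing began 24 hours after surgery and went on for 2 days, and cells were taken on day 3 (the labels do not say what surgery mice without stroke underwent). Age and treatment differ together in this comparison, and strain, supplier and cage are not in the labels, so differences of that kind between young and aged mice cannot be told apart from age.

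Microglia are the resident macrophages of the brain. In aged brains they are known for higher levels of interferon-induced genes, of genes for antigen presentation and of the genes that mark disease-associated microglia, a state described around plaques and damaged tissue. Bexarotene activates retinoid X receptors (RXR), nuclear receptors that bind DNA in pairs with a partner such as the liver X receptors (LXR), the retinoic acid receptors (RAR) or the peroxisome proliferator-activated receptors (PPAR). Pairs of RXR with LXR are known to switch on genes that carry cholesterol out of macrophages.

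The 12 libraries held between 7582511 and 11852638 counts each. They were made from cells that had passed a depletion with Ly6G beads, against neutrophils, and a positive selection with CD11b beads. Microglial genes were abundant in all 6 libraries compared. The purinergic receptor gene P2ry12 stood at 11685, 14164 and 12562 CPM (counts scaled to library size) in the 3 young vehicle libraries and at 8014, 9900.4 and 8174 CPM in the 3 aged bexarotene libraries, and Tmem119 at 5037, 6617 and 5797 CPM and 5569.9, 6239 and 5861 CPM. Summed over 14 neutrophil markers, the level was 858 to 1791 CPM in young vehicle, 1076 to 2099.9 CPM in aged bexarotene and 686 to 954 CPM in aged vehicle libraries, so the compared groups overlapped, while treated aged libraries lay above untreated aged ones. Summed markers of infiltrating monocytes did the same (129 to 326, 192 to 355 and 108 to 161 CPM). In aged bexarotene minus young vehicle cells 13 of the 14 neutrophil markers and 14 of 15 monocyte markers had fold changes above 0. Their medians were 0.53 and 0.30, and none was called. Of 15 T cell markers Cd8a, Cd8b1 and Gzmk were at 0 in all 6 libraries, and the sum was 11 to 19.8 CPM in young vehicle against 6.08 to 9.88 CPM in aged bexarotene. The astrocyte sum was 311 to 435 CPM against 499.8 to 732 CPM, with 590.5 to 919 CPM in young bexarotene and 341 to 490.4 CPM in aged vehicle libraries. It was nearly all Slc1a3, a glutamate transporter gene (means of 342, 571, 700.4 and 366 CPM in the same order), and only 4 of the 11 astrocyte markers had fold changes above 0, with none called and a median of -0.35. The endothelial sum was 53.8 to 57.9 CPM against 39.6 to 49.4 CPM. The T cell, astrocyte and endothelial sums did not overlap between the compared groups, and in bulk samples fewer cells of a type and less RNA per cell cannot be told apart. The libraries numbered 1 stood apart by their choroid plexus markers, with 2681 CPM in young vehicle and 1822 CPM in aged bexarotene, against at most 919 CPM in the 4 other libraries compared. Counts are therefore also given without the libraries numbered 1 of every group, and the part of other cells in the results was not tested.

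**Figure D1:**
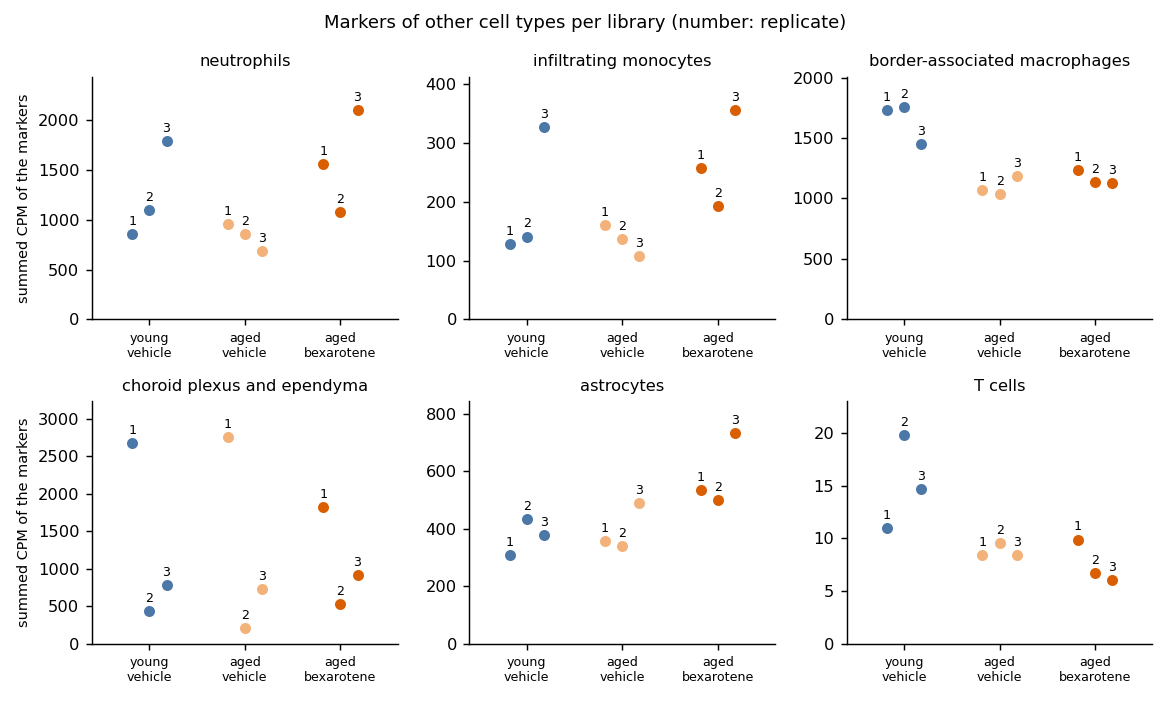
Summed level of the markers of 6 other cell types in each library, in CPM on linear axes that start at 0, for young vehicle, aged vehicle and aged bexarotene mice; each point is 1 library and its number is the replicate. The choroid plexus sum was highest in the library numbered 1 of each group, and the border-associated macrophage sum was lower in all 6 aged libraries than in the 3 young ones.

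Treated old cells differed from untreated young cells in genes of both directions. Of 15528 genes tested, 482 (3.10%) were called at an adjusted p under 0.05 by edgeR's quasi-likelihood test, 271 (1.75%) higher and 211 (1.36%) lower in aged bexarotene cells. Of those called, 145 were more than 2-fold higher and 52 more than 2-fold lower. An unadjusted p under 0.05 was reached by 2467 genes, and the median log2 fold change over all genes was 0.00. For 9992 genes (64.3%) the 95% interval of the fold change lay within 2-fold in either direction, so a larger change lay outside the interval for them. The 3 libraries of each group did not overlap for 481 of the 482 called genes, against 21.3% of all genes tested. Call and overlap rest on the same values, so this describes the called genes and adds no support. Over all genes tested, the root mean square log2 distance was 0.678 to 0.888 for the 9 pairs of an aged bexarotene and a young vehicle library, against 0.593 to 0.709 between aged bexarotene replicates and 0.656 to 0.752 between young vehicle replicates. The count of called genes rested on single libraries: it was 316, 318 and 236 without aged bexarotene replicate 1, 2 and 3 and 209 and 326 without young vehicle replicate 1 and 2. It was 173 without all libraries numbered 1, and the share called higher then moved from 56.2% to 72.8% (71.2% without aged bexarotene replicate 3).

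To separate genes that went with age from genes that went with bexarotene, the called genes were read in aged vehicle minus young bexarotene cells, a comparison that shares no library with the first, although 1 model gave the spread of both. A gene that follows age keeps its sign there, and a gene that follows the drug turns it. That comparison called 552 genes (3.55%). Its count fell to 286 and 281 without aged vehicle replicate 2 and 3 and to 254 and 364 without young bexarotene replicate 1 and 3. Of the 482 genes, 330 (68.5%) kept their sign, against 56.8% of all genes tested, and 152 turned it. Called in both were 191 genes, 39.6% of the first list and 34.6% of the second. Of these, 153 had the same sign, 118 higher and 35 lower in aged cells, and 38 had opposite signs, 35 higher and 3 lower with bexarotene. The other 291 genes were called in the first comparison only and are assigned to neither. Aged against young vehicle cells gave 264 called genes (1.70%), aged bexarotene against aged vehicle cells 40 (0.258%) and young bexarotene against young vehicle cells 79 (0.509%). These 3 comparisons share libraries with the one described here, so their values are set side by side for each gene and not used as support. The test of whether bexarotene acted differently at the 2 ages (edgeR, interaction term) called 0 genes. An unadjusted p under 0.05 was reached by 456, fewer than this threshold would pass among 15528 genes without any effect.

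Genes induced by interferon were higher in treated old than in untreated young cells. Of 33 interferon response genes tested, 16 rose and none fell, where 1.75% of all genes rose, and the median log2 fold change of the list was 1.00 against 0.00 over all genes. Oas1a, which makes the short RNAs that activate antiviral RNase L, stood at 7.25, 8.5 and 10.0 CPM in young vehicle and at 24.7, 21.2 and 21.5 CPM in aged bexarotene libraries. The groups did not overlap, and the log2 fold change was 1.38 ± 0.18 SE (n = 3 libraries per group, edgeR adjusted p = 0.000221). Usp18, which removes the ubiquitin-like protein ISG15 from its targets, went from 6.39, 7.69 and 11.5 CPM to 26.5, 22.8 and 20.8 CPM (1.44 ± 0.20). Its treated old libraries all lay above its young ones. The OAS-like gene Oasl2 rose by 1.43, and Ifit3b, of a family that binds viral RNA, by 1.55 on the log2 scale. Irf7, a transcription factor that amplifies interferon production, went from 7.63, 8.5 and 12.1 CPM to 28.8, 21 and 23.9 CPM (1.37 ± 0.29). Called members also included Ifit2, Ifit3, Rtp4, Sp100, Zbp1 and Bst2, with log2 fold changes from 0.48 for Bst2, a membrane tether of virus particles, to 1.54 for Ifit2. Isg15 itself was at 2.1, 3.24 and 2.97 CPM and 6.9, 5.86 and 6.19 CPM and missed the threshold (1.20 ± 0.34, edgeR adjusted p = 0.069), but passed with DESeq2 (adjusted p = 0.00505), with no filter on low counts and when only the 12 libraries without stroke or the 6 compared were fitted (0.0239 and 0.0495). Ifit3 and Ifit3b, and the Oas and Ifi20x genes, have near-identical copies, so how their reads were divided is uncertain.

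Between treated and untreated aged cells no interferon gene was called. In aged vehicle minus young vehicle cells, which share the young libraries, 16 of the 33 genes rose and the median was 1.26, and in aged bexarotene minus aged vehicle cells the median was -0.17. Oas1a was at 23.3, 21 and 34.4 CPM and Usp18 at 30.8, 27.2 and 28.9 CPM in aged vehicle libraries. For Oas1a they overlapped with the treated ones, and for Usp18 they lay above them without a call (-0.31 ± 0.19, edgeR adjusted p = 0.863). The summed level of the list was 700.3 to 785 CPM in young vehicle, 728 to 857 CPM in young bexarotene, 1124 to 1411 CPM in aged vehicle and 1053 to 1302 CPM in aged bexarotene libraries. The count of 16 fell to 10 without aged bexarotene replicate 1, to 9 without young vehicle replicate 1, to 9 without the libraries numbered 1 and to 9 with limma voom, and was 26 with no filter on low counts.

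Because the members moved together, their promoters were read for the interferon-stimulated response element, the site of the STAT and IRF factors, as GAAANNGAAA on either strand. RefSeq windows (GRCm38.p6, 250 bases before to 50 bases after each start) were matched by symbol for 24 members. The letters were in 15 of these 24 (62.5%), against 3.99% of 27025 genes with a window. They were in 5 of the 12 called members with a window (41.7%: Oas1a, Ifit3b, Ifit3, Bst2 and Ifi207), a lower share than in the whole list. The list was made of interferon response genes, so these shares cannot speak to the change seen here. The 250 bases before the start of 3 called members from different families are shown with the match in capitals, 5′ to 3′ on the gene's own strand, to show how far from the start the letters lie. Oas1a is at chr5:120907526-120907775 on the minus strand, Ifit3b at chr19:34607707-34607956 on the plus strand and Bst2 at chr8:71537473-71537722 on the minus strand.
Oas1a: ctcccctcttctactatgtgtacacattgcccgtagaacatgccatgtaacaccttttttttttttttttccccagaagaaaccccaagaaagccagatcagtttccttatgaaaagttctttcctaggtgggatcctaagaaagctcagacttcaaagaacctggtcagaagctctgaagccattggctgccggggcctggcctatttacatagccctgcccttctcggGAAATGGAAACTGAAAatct
Ifit3b: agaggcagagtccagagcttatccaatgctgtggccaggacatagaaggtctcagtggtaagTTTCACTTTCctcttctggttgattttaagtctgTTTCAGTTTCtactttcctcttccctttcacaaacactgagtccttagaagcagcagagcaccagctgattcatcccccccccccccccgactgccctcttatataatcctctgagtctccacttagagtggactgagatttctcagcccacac
Bst2: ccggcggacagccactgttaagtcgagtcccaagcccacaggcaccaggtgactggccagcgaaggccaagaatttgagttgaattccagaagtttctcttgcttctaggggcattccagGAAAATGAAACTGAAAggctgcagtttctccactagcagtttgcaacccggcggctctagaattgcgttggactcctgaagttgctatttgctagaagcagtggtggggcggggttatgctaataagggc
The first matching base lies 20 bases before the start in Oas1a, 188 before it in Ifit3b and 130 before it in Bst2. In Oas1a and Bst2 overlapping matches run together, and Ifit3b holds 2 separate ones. A match is a description of letters and not of binding.

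Genes of antigen presentation by MHC class I were higher as well. Of 16 tested, 7 rose and none fell (1.75% of all genes rose), with a median of 0.41. The class I heavy chain H2-D1 stood at 545, 738 and 809 CPM in young vehicle and at 1269.7, 1257 and 1222 CPM in aged bexarotene libraries, a log2 fold change of 0.84 ± 0.15 SE (edgeR adjusted p = 0.00359). The groups did not overlap, and aged vehicle libraries, at 1153, 1752 and 1695 CPM, spanned the treated ones. H2-K1 rose by 0.63, H2-Q6 by 1.94 and H2-Q7 by 1.85, although class I chains are near copies of each other and their reads may be divided wrongly. Nlrc5, the transcriptional activator of class I genes, went from 4.77, 4.05 and 3.23 CPM to 11.8, 8.66 and 8.11 CPM (1.25 ± 0.26). B2m, the light chain of every class I molecule, went from 2186, 2868 and 2861 CPM to 3901, 4158 and 3641 CPM (0.56 ± 0.14, edgeR adjusted p = 0.036). Its call was lost without any single library of the 6 (adjusted p = 0.0551 to 0.196), and that of Nlrc5 without aged bexarotene replicate 1 or young vehicle replicate 3 (0.0522 and 0.0536). The count of 7 became 3 without aged bexarotene replicate 1, 4 without young vehicle replicate 1, 2 without the libraries numbered 1 and 4 with limma voom. In aged vehicle minus young vehicle cells 8 rose with a median of 0.57, and between the aged groups the median was -0.11. Class II genes gave no call among 11, yet all 11 fold changes were above 0: Cd74, the class II chaperone, was at 195, 305 and 247 CPM in young vehicle and 891, 569 and 489 CPM in aged bexarotene libraries (1.38 ± 0.40, edgeR adjusted p = 0.0884). It passed with DESeq2 (adjusted p = 0.0104), with no filter on low counts and when only the 12 libraries without stroke or the 6 compared were fitted (0.0117 and 0.0431).

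Of 25 genes of disease-associated microglia, 9 were called higher and none lower, against 1.75% of all genes called higher, with a median of 0.92. Spp1, which encodes the secreted protein osteopontin, stood at 8.3, 12.3 and 5.76 CPM in young vehicle and at 116, 132 and 95.3 CPM in aged bexarotene libraries. Every treated old library was thus above every young one, with a log2 fold change of 3.74 ± 0.60 SE (edgeR adjusted p = 0.00375). In aged vehicle libraries Spp1 spread widely, at 80.0, 514 and 346 CPM, and the difference between the aged groups was -1.45 ± 0.51 (edgeR adjusted p = 0.558), which did not pass. In aged vehicle minus young bexarotene cells, which share no library with the main comparison, Spp1 rose by 5.38. Axl, a receptor kinase for the uptake of dying cells, went from 34.8, 43.4 and 50.3 CPM to 216, 194 and 171 CPM (2.18 ± 0.26) and stood at 98.9, 227 and 188 CPM in aged vehicle libraries. Clec7a, the receptor for beta-glucan, went from 20.3, 21.4 and 33.8 CPM to 103, 108 and 86.8 CPM (1.97 ± 0.30), and Cst7, an inhibitor of lysosomal proteases, from 3.82, 7.28 and 5.06 CPM to 36, 30.5 and 27.7 CPM (2.57 ± 0.47). For both, aged vehicle libraries held values below and above the treated ones. Of the 9 called members, 7 rose and Ccl6 fell in aged vehicle minus young bexarotene cells (Csf1 was not called). The growth factor gene Csf1 rose by 1.15 and the tetraspanin gene Cd9 by 0.92.

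Other members of this list did not pass. Apoe, the lipid carrier, was at 1699, 2229 and 1831 CPM in young vehicle and 3155, 3393 and 2579.8 CPM in aged bexarotene libraries (0.66 ± 0.23, edgeR adjusted p = 0.149), the integrin gene Itgax at 1.09 and the lipid receptor gene Trem2 at 0.14. Apoe and Itgax passed with DESeq2, with no filter on low counts and when only the 6 libraries were fitted. Ch25h, which makes 25-hydroxycholesterol, was called (2.05) although its groups overlapped, at 0.668, 0.539 and 2.01 CPM against 6.18, 6.2 and 1.83 CPM, the only called gene of the whole table that did so. Mmp12, a macrophage elastase outside the list, went from 0.954, 1.75 and 2.88 CPM to 10.8, 13 and 10.9 CPM (2.61 ± 0.58) and was at 14.3, 76.7 and 37.8 CPM in aged vehicle libraries. Its call was lost without any 1 of 5 libraries, all but young vehicle replicate 3 (adjusted p = 0.0509 to 0.13), and that of Cst7 without young vehicle replicate 1 (0.0592). The 9 called members became 4 without young vehicle replicate 1, 5 without the libraries numbered 1 and 17 with no filter on low counts. In aged vehicle minus young vehicle cells 11 of the 25 rose with a median of 0.92, and between the aged groups the median was -0.23 and Ccl6 alone was called.

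**Figure D2:**
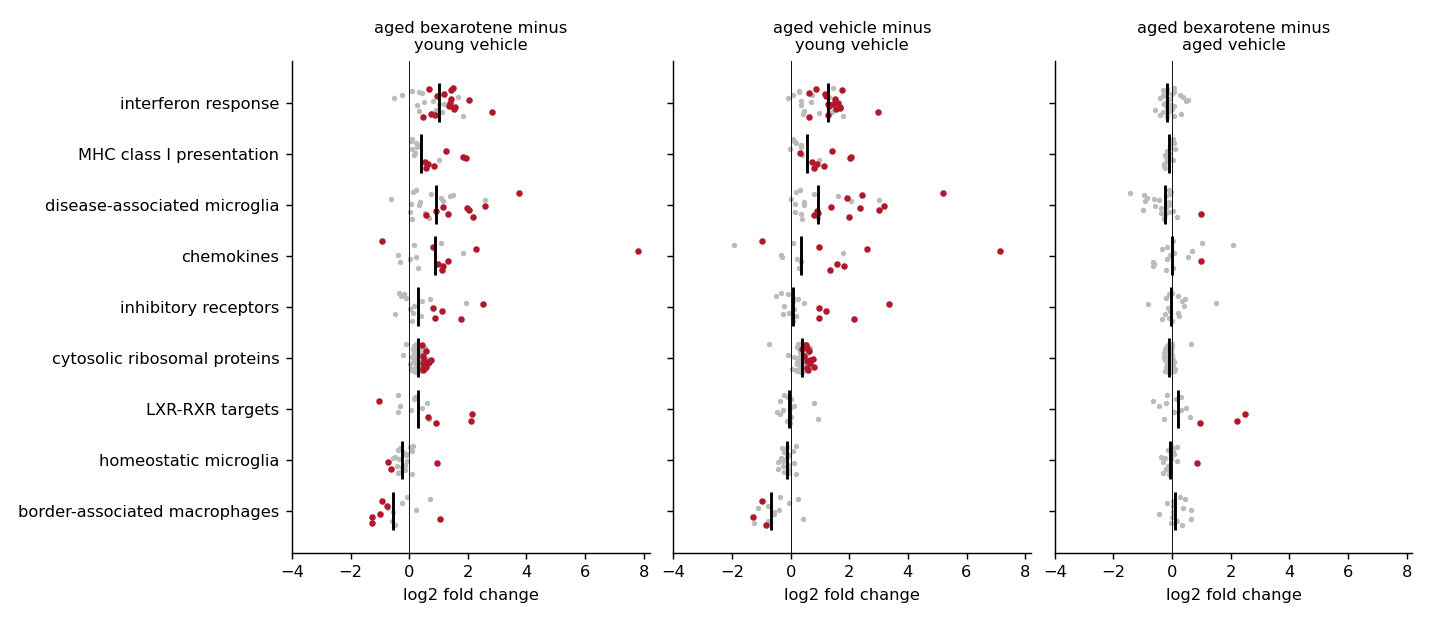
Log2 fold changes of the members of 9 gene lists in 3 comparisons that share libraries; each point is 1 gene, red where edgeR called it at an adjusted p under 0.05, and the black bar is the list's median. The interferon response median is 1.00 in aged bexarotene minus young vehicle, 1.26 in aged vehicle minus young vehicle and -0.17 between the aged groups, while Abcg1 and Eepd1 stand out among LXR-RXR targets wherever bexarotene is on the left of the difference.

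Among the 153 genes that kept their sign and their call, some held 1 level in all aged libraries and another in all young ones. Mpeg1, which encodes perforin-2, a pore-forming protein of macrophages, stood at 153, 142 and 172 CPM in young vehicle and at 979.9, 969 and 916 CPM in aged bexarotene libraries (2.62 ± 0.16 SE, edgeR adjusted p = 3.5e-08). Aged vehicle libraries were at 989.7, 1063 and 981 CPM and young bexarotene ones at 139, 161 and 194 CPM, with no aged library near a young one. Wdfy1, an endosomal adaptor of Toll-like receptor signalling, went the other way, from 103, 124 and 119 CPM to 28.5, 29.4 and 39.7 CPM (-1.83 ± 0.13), with 31.9, 30.8 and 27.8 CPM in aged vehicle libraries. In aged vehicle minus young bexarotene cells, which share no library with these, Mpeg1 changed by 2.62 and Wdfy1 by -2.19. Naalad2, a peptidase of the glutamate carboxypeptidase family, rose by 1.85 and by 1.88 in those 2 comparisons, the SLAM family receptor Ly9 by 1.94 and 1.46, the syndecan Sdc3 by 1.34 and 0.65, and Ildr2, of the immunoglobulin superfamily, by 2.58 and 2.92.

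A gene tied to a known genetic difference among mice of 1 strain also differed between the age groups. Ide, the gene of insulin-degrading enzyme, lies in a duplication known to segregate within the C57BL/6J strain. It had a mean of 65.1 CPM in young vehicle, 64 in young bexarotene, 117 in aged vehicle and 117 in aged bexarotene libraries, and rose by 0.85 ± 0.10 SE (n = 3 libraries per group, edgeR adjusted p = 3.65e-05). Its neighbour in that duplication, Fgfbp3, had means of 1.57, 2.36, 4.29 and 4.72 CPM and rose by 1.57 ± 0.40 (adjusted p = 0.0365). Both genes were looked up after the values of Wdfy1 had been seen, and whether the aged and young mice carried the duplication was not tested.

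Among genes with the largest changes, the channel gene Kcnj12 went from 1.53, 2.02 and 1.75 CPM to 22.2, 28.9 and 26.6 CPM (3.88 ± 0.42) and the lectin gene Clec1a from 0.763, 0.405 and 1.05 CPM to 11.1, 10.3 and 8.72 CPM (3.69 ± 0.42). Aged vehicle cells held means of 15.1 and 8.05 CPM, against young vehicle means of 1.76 and 0.738 CPM, and both genes kept their sign and call in aged vehicle minus young bexarotene cells (3.00 and 2.40). Cxcl13, a chemokine that attracts B cells, had 2 counts in the 3 young vehicle libraries together and 542 in the aged bexarotene ones, a ratio of 254 with an exact 95% counting interval of 69.9 to 2101. Its aged bexarotene libraries were at 17.8, 14.6 and 20.0 CPM and its aged vehicle ones at 6.25, 13.4 and 13.2 CPM.

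On the lower side, the orphan receptor gene Gpr165 went from 277, 311 and 232 CPM to 21.2, 22.3 and 25 CPM (-3.58 ± 0.42). It stood at 39.9, 39.5 and 41 CPM in aged vehicle and at 104, 206 and 87.1 CPM in young bexarotene libraries, so the treated old libraries were the lowest of the 12. Rgs7bp, which anchors RGS proteins to the membrane, went from 15.8, 20.4 and 16.3 CPM to 1.65, 1.53 and 2.03 CPM (-3.33 ± 0.29), and aged vehicle libraries held 3.35, 2.64 and 2.4 CPM. Nbea, a scaffold of vesicle traffic, changed by -1.76, Tbc1d4, a regulator of glucose transporter traffic, by -1.36 and the FERM-domain gene Frmd6 by -1.41. The dynein light chain genes Dynlt1a and Dynlt1b fell from means of 56.1 and 67.2 CPM to 29.9 and 33.6 CPM, but as near-identical copies their reads cannot be told apart. Peak1, a pseudokinase gene, changed by -1.60, but its change in aged vehicle minus young bexarotene cells was -0.25 (edgeR adjusted p = 0.664), so it was assigned to neither age nor drug. The calls of Tbc1d4 and Peak1 were lost without the libraries numbered 1.

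Genes on a list of inhibitory receptors were higher in part. The list is not limited to such receptors and also holds the ligand gene Cd274 and the related receptor gene Lilra5. Of 18 list members tested, 5 rose and none fell (1.75% of all genes rose), with a median of 0.29. Cd22, a receptor for sialic acid that restrains uptake by microglia, stood at 7.06, 8.9 and 11.7 CPM in young vehicle, 31.4, 31.3 and 33.1 CPM in aged bexarotene and 43.2, 42.8 and 36.9 CPM in aged vehicle libraries (1.78 ± 0.17 SE against young vehicle, edgeR adjusted p = 6.52e-06). Treated old libraries lay between the young and the untreated old ones, without a call between the aged groups (-0.36 ± 0.16, adjusted p = 0.717). Pdcd1, the gene of the checkpoint receptor PD-1, had the same order, at 1.91, 1.89 and 1.66 CPM, 12.9, 9.94 and 8.52 CPM and 15.4, 22.4 and 17.8 CPM, with 2.52 ± 0.30 against young vehicle and -0.83 ± 0.23 between the aged groups (adjusted p = 0.297). Cd274, the PD-1 ligand, rose by 0.88, the receptor gene Lilra5 by 0.82 and the checkpoint receptor gene Lag3 by 1.11. All 5 also rose in aged vehicle minus young bexarotene cells. The count became 3 without young vehicle replicate 1, where Lag3 was lost (adjusted p = 0.0562).

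Of 16 chemokines, 7 rose and 1 fell, where 1.75% and 1.36% of all genes did, with a median of 0.89. Beside Cxcl13 the called members were the macrophage chemokines Ccl3 (1.16) and Ccl4 (0.97), the monocyte attractant Ccl12 (1.13), the scavenger and chemokine Cxcl16 (0.81), Cxcl14 (2.27) and Ccl6 (1.32), and the platelet factor gene Pf4 (-0.94). Of these 8, 7 kept their sign and call in aged vehicle minus young bexarotene cells and Ccl6 turned its sign. It was at 143, 201 and 222 CPM in young vehicle, 206, 259 and 256 CPM in aged vehicle and 398, 422 and 589 CPM in aged bexarotene libraries, and changed by -0.71 ± 0.19 (edgeR adjusted p = 0.048) in that comparison. The 7 became 4 without aged bexarotene replicate 1, 4 without young vehicle replicate 1, 4 without the libraries numbered 1 and 3 with limma voom, and the call of Pf4 was lost without aged bexarotene replicate 2 or 3 or young vehicle replicate 1 or 2 (adjusted p = 0.0546 to 0.0842). None of 19 immediate early genes, listed as a sign of cell handling, was called, where 3.10% of all genes were. Of their fold changes 13 were above 0, with a median of 0.38. The part of handling in the chemokine levels was not tested.

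**Figure D3:**
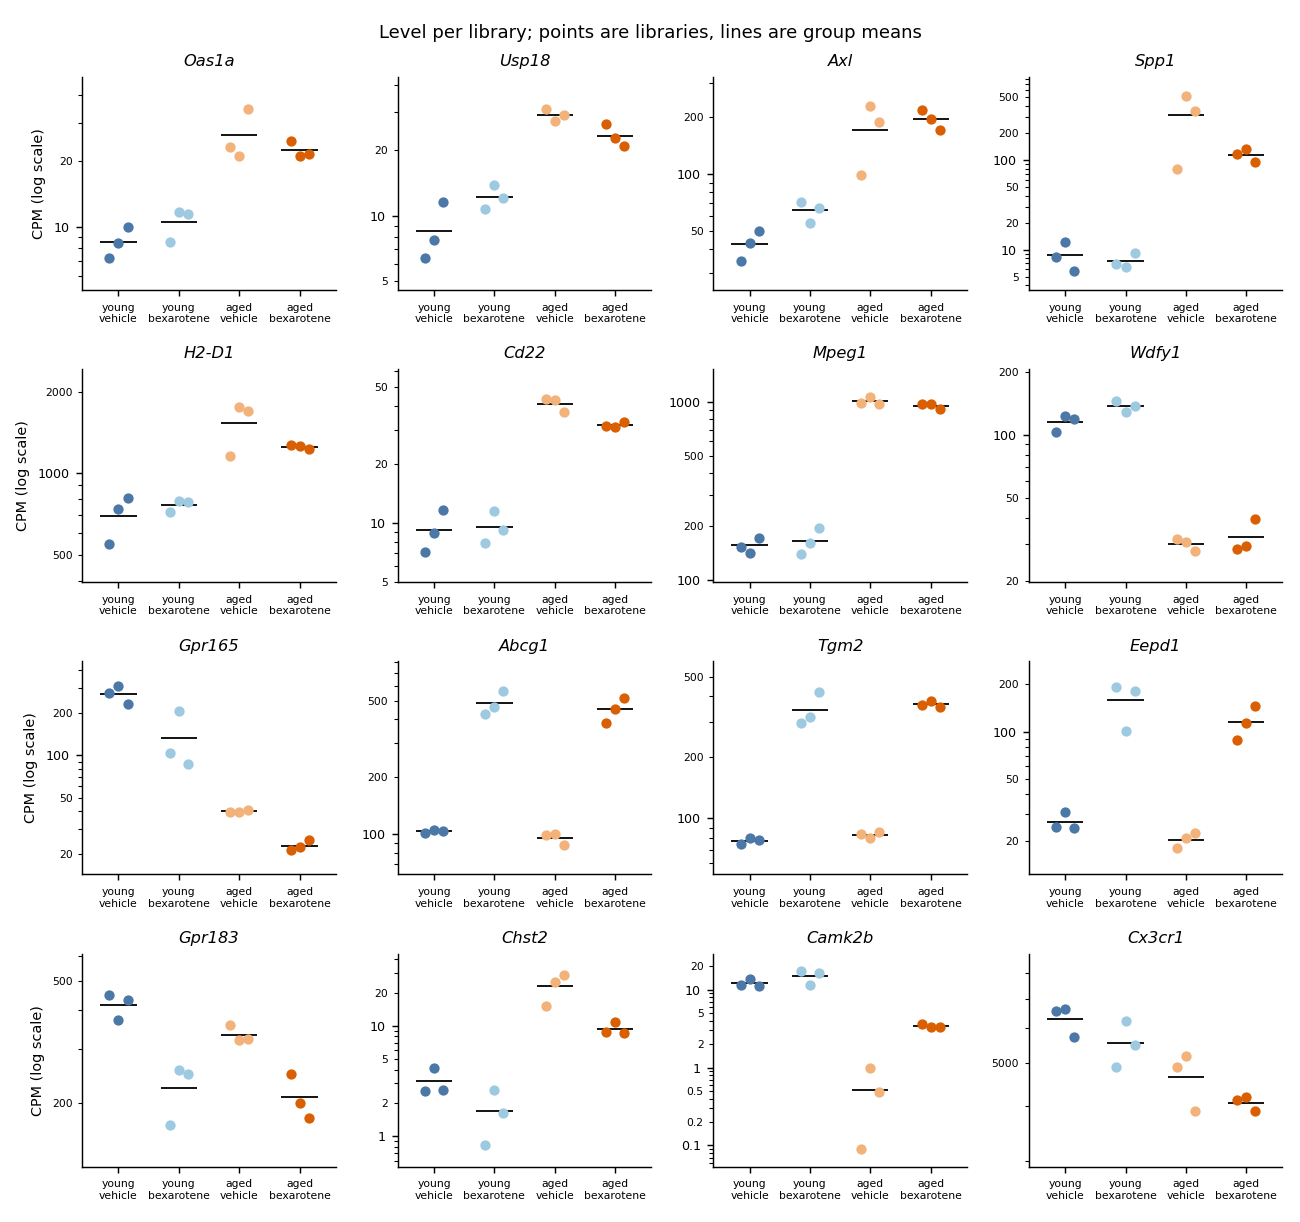
Level of 16 genes in each of the 12 libraries without stroke, in CPM on log axes; each point is 1 library and each line a group's mean. Mpeg1 and Wdfy1 split by age, Abcg1, Tgm2 and Eepd1 by bexarotene, and Chst2 and Camk2b stand in treated old cells between their young and their untreated old levels.

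A second set of differences from young vehicle cells came with the drug. Of 14 LXR-RXR targets tested, 4 rose and 1 fell (1.75% and 1.36% of all genes did), with a median of 0.32. Abcg1, which exports cholesterol to lipoproteins, stood at 102, 105 and 104 CPM in young vehicle and at 383, 453 and 514 CPM in aged bexarotene libraries (2.12 ± 0.13 SE, edgeR adjusted p = 3.59e-08). Aged vehicle libraries, at 99.4, 100.3 and 87.7 CPM, were at the young vehicle level, and young bexarotene ones, at 428, 466 and 563 CPM, at the treated old level. Eepd1, an endonuclease-family gene that LXR induces in macrophages, went from 24.5, 30.7 and 24.3 CPM to 88, 113 and 145 CPM (2.13 ± 0.27), and Abca1, which loads cholesterol onto apolipoproteins, from 568, 425 and 403 CPM to 901, 774 and 992 CPM (0.93 ± 0.14). Arl4c, a small GTPase gene, rose by 0.64. Scd2, a fatty acid desaturase of the same list, fell from 187, 163 and 134 CPM to 81.2, 87 and 70.0 CPM (-1.02 ± 0.17), a call lost without the libraries numbered 1. In aged vehicle minus young bexarotene cells Abcg1, Eepd1, Abca1 and Arl4c turned to -2.34, -2.94, -1.13 and -0.80. Scd2 was not called there (0.21, edgeR adjusted p = 0.602), so it was assigned to neither age nor drug. The count of 4 called higher became 3 without aged bexarotene replicate 2 or 3 and without any single young vehicle library. It was 5 with DESeq2 and when only the 6 libraries compared were fitted, 6 with no filter on low counts and 4 under the other alternatives.

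The LXR-RXR pair is known to bind a direct repeat with a spacer of 4 bases, read here as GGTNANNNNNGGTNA on either strand. Of 9 LXR-RXR targets with a RefSeq window, 3 held these letters (Abca1, Fasn and Srebf1), against 0.818% of 27025 genes. The list was made of such targets, so this share cannot speak to the change seen here. Of the 38 genes called in both comparisons with opposite signs, 28 had a window matched by symbol, and 2 of these held the letters (Abca1 and Cmtm7). The 250 bases before the start of Abca1, the called target with a match, are shown with the match in capitals; its first base lies 67 bases before the start (GRCm38.p6, chr4:53159896-53160145, minus strand).
Abca1: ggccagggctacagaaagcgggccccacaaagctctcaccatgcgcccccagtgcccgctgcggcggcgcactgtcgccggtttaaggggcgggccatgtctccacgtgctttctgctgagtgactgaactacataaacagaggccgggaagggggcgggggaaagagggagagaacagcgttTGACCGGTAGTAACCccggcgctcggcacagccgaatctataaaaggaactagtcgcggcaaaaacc
Of the 3 genes with a match on this list only Abca1 passed the test. Srebf1, the regulator of fatty acid synthesis, changed by 0.20 ± 0.12 (edgeR adjusted p = 0.453) and Fasn, the fatty acid synthase, by -0.39 ± 0.25 (adjusted p = 0.478).

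Other genes went with bexarotene by the same reading. Tgm2, a transglutaminase that retinoids induce, stood at 74.8, 79.7 and 78 CPM in young vehicle, 83.3, 79.8 and 86 CPM in aged vehicle and 365, 378 and 357 CPM in aged bexarotene libraries (2.24 ± 0.27 SE against young vehicle, edgeR adjusted p = 0.000152). Treated old libraries were above all libraries of both untreated groups. Of 6 RAR-RXR targets Tgm2 and the retinal reductase gene Dhrs3 (0.52) rose (1.75% of all genes did) and none fell, and Dhrs3 was not called in aged vehicle minus young bexarotene cells. The count of 2 became 1 without the libraries numbered 1. The kinase gene Camkk1 rose by 2.16, Mmd, which rises as monocytes turn into macrophages, by 1.79, and Baiap2, an adaptor of the actin skeleton, by 1.77. The exchange factor gene Rasgef1b rose by 1.45, the ephrin receptor gene Epha2 by 1.45 and St3gal5, which makes the ganglioside GM3, by 1.01.

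Lower with the drug were 3 genes. Gpr183, a receptor that guides immune cells along oxysterols, stood at 448, 371 and 431 CPM in young vehicle and at 247, 200.2 and 179 CPM in aged bexarotene libraries (a log2 fold change of -1.0 ± 0.14 SE). Aged vehicle libraries lay between, at 357, 320.1 and 322 CPM, and young bexarotene ones at 169, 255 and 248 CPM. Cttnbp2nl, which binds cortactin, changed by -0.56 and the zinc finger gene Zfp467 by -0.61. The call of Zfp467 was lost without any single library of the 6 (adjusted p = 0.0702 to 0.153) and that of Cttnbp2nl without the libraries numbered 1.

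The receptors themselves and other targets gave no more than 1 call per list, where 3.10% of all genes were called. At that share a short list can hold no call, so 0 calls do not show that a list was unchanged. Rxra, the main RXR gene of macrophages, was at 92.9, 90.8 and 93.8 CPM and 72.9, 71.2 and 77.3 CPM and did not pass (-0.33 ± 0.11, edgeR adjusted p = 0.115). Of 14 receptor genes tested only Rxrg rose (1.75% of all genes did). It went from 0, 0.539 and 0.0873 CPM to 11, 8.49 and 5.88 CPM (5.53 ± 0.66, a fitted value that depends on very few young reads). Aged vehicle libraries held 6.7, 12.2 and 9.98 CPM of Rxrg. Of 20 PPAR-RXR targets, 1 rose and 4 fell in aged vehicle minus young bexarotene cells. In aged bexarotene minus young vehicle cells none of the 20 targets was called, yet 18 fold changes were above 0 (median 0.16). Among them Cpt1a, the gate of fatty acid import into mitochondria, was at 60.9, 54.6 and 60.7 CPM in young vehicle and 81, 70.8 and 85.2 CPM in aged bexarotene libraries (0.43 ± 0.14, adjusted p = 0.111) and differed between the aged groups (0.70 ± 0.14, adjusted p = 0.0462). The scavenger receptor gene Cd36 had 50.8, 27.1 and 39.1 CPM on average in young vehicle, aged vehicle and aged bexarotene cells, and -0.37 ± 0.16 against young vehicle did not pass (adjusted p = 0.253). None of 23 genes of cholesterol synthesis and uptake was called, 16 fold changes were above 0, and the median was 0.20.

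For 2 genes the age difference and the treatment difference in aged mice had opposite signs and were both called. The first is aged vehicle minus young vehicle and the second aged bexarotene minus aged vehicle. Both differences use the same aged vehicle libraries, with opposite sign. A deviation of those libraries alone would favour such genes, so the order of the groups is only described. Chst2, a sulfotransferase of carbohydrate chains, stood at 2.58, 4.18 and 2.62 CPM in young vehicle, 14.9, 25.1 and 29 CPM in aged vehicle and 8.85, 10.9 and 8.52 CPM in aged bexarotene libraries. Treated old libraries lay between the others without overlap, -1.28 from untreated old cells (edgeR adjusted p = 0.0474) and 1.62 ± 0.30 SE from young vehicle cells (adjusted p = 0.00469), so the distance to young cells was still called. Camk2b, a subunit of calcium and calmodulin-dependent kinase, stood at 11.5, 13.9 and 11.1 CPM, 0.0906, 0.978 and 0.48 CPM and 3.6, 3.31 and 3.35 CPM in the same order. It was 2.73 higher in treated than in untreated old cells (adjusted p = 0.0424), a fitted value that depends on very few aged vehicle reads. Aged vehicle replicate 1 lay below the floor of 3 counts, which is 0.272 CPM in that library. Against young vehicle cells Camk2b changed by -1.83, a call lost without any 1 of 5 libraries, all but young vehicle replicate 3 (adjusted p = 0.0556 to 0.0808). Nupr1, a stress-response gene, was lower in treated than in untreated old cells (-0.67, adjusted p = 0.0371) and did not pass against young vehicle cells (-0.27 ± 0.13, adjusted p = 0.326), at 19.5, 21.8 and 19 CPM against 17.7, 16.2 and 16.1 CPM. These 3 genes were read with the aged groups' difference known, and 40 genes in all (0.258%) were called in it.

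Homeostatic microglial genes gave calls in both directions. Of 22 tested, 1 rose and 2 fell (1.75% and 1.36% of all genes did), 5 fold changes were above 0, and the median was -0.23. Cx3cr1, the fractalkine receptor, fell from 6566, 6631 and 5742 CPM to 4126, 4187 and 3908 CPM (-0.63 ± 0.14 SE, edgeR adjusted p = 0.0142), and Mef2c, a transcription factor of microglia, from 777, 608 and 628 CPM to 467, 367 and 372 CPM (-0.74 ± 0.13). Aged vehicle libraries were at 4904, 5197 and 3896 CPM for Cx3cr1. Neither was called in aged vehicle minus young bexarotene cells. P2ry12, given above, missed the threshold (-0.56 ± 0.16, adjusted p = 0.064), and Tmem119 was at 0.02 ± 0.13. The count of 2 lower became 1 without aged bexarotene replicate 3, without young vehicle replicate 2 and without the libraries numbered 1. It was 5 with DESeq2, and 4 with no filter on low counts and when only the 12 or the 6 libraries were fitted. P2ry12 was called in each of these (adjusted p = 0.0219 with DESeq2 and 0.0269 with 6 libraries). The call of Cx3cr1 was lost without aged bexarotene replicate 3 or young vehicle replicate 1 or 2 (adjusted p = 0.0547 to 0.0709) and without the libraries numbered 1.

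Some markers of border-associated macrophages, which line the brain's vessels and meninges, were lower. Of 14 tested, 5 fell (1.36% of all genes fell) and 1 rose, with a median of -0.57. The lectin gene Clec10a went from 22.6, 30.7 and 23.1 CPM to 12.6, 11.4 and 7.3 CPM (-1.28 ± 0.23 SE, edgeR adjusted p = 0.00321) and the endocytic adaptor gene Dab2 from 278, 296 and 210.4 CPM to 128, 151 and 109 CPM (-1.01 ± 0.15). Ccl24, an attractant of eosinophils, changed by -1.27, Pf4 by -0.94 and the mannose receptor gene Mrc1 by -0.75. Cd209f, a lectin of the same cells, went the other way, from 37.4, 43.8 and 36.6 CPM to 83, 88.1 and 74.7 CPM (1.06 ± 0.23). The summed level of the 14 markers was 1451 to 1754 CPM in young vehicle, 1039.7 to 1186 CPM in aged vehicle and 1130.4 to 1239 CPM in aged bexarotene libraries. The 5 became 3 without aged bexarotene replicate 1, 2 without aged bexarotene replicate 2 or 3, 2 without young vehicle replicate 1 or 2, 2 without the libraries numbered 1, and 8 with no filter on low counts or with only the 6 libraries fitted. Mrc1 lost its call without each of these libraries (adjusted p = 0.0657 to 0.188 without 1 library) and with the replicate number as a block (adjusted p = 0.0548), and Cd209f lost it without aged bexarotene replicate 2 or young vehicle replicate 1 or 3 (0.0582 to 0.0778).

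Ribosomal protein genes were slightly higher. Of 79 tested, 12 rose (1.75% of all genes did) and none fell, 77 fold changes were above 0 and the median was 0.31. Rpl32 went from 36.7, 39 and 41.3 CPM to 62, 68.5 and 50.5 CPM (0.63 ± 0.12 SE, edgeR adjusted p = 0.00538) and Rpl9 from 28.1, 26.6 and 30.9 CPM to 40.8, 39.8 and 37.8 CPM (0.47 ± 0.09). These changes are small, and the count moved with single libraries. It was 6, 3 and 5 without aged bexarotene replicate 1, 2 and 3, 2 and 4 without young vehicle replicate 1 and 2, 7 and 1 when only the 12 libraries without stroke or the 6 compared were fitted, 5 with limma voom and 0 without the libraries numbered 1. Ribosomal genes have many processed copies in the genome, which makes their reads uncertain.

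Several programmes gave no call, or no more than 1 in each direction, in treated old against untreated young cells. Of 17 inflammatory cytokines and regulators only Il6 rose, where 1.75% of all genes did. It went from 12.9, 8.36 and 9.86 CPM to 20.4, 24.7 and 30.6 CPM (1.28 ± 0.27). Its call was lost without aged bexarotene replicate 3 or young vehicle replicate 2 or 3. Tnf was at 4.39, 4.05 and 5.76 CPM and 5.97, 3.57 and 4.87 CPM (0.00 ± 0.30) and Il1b at 6.58, 34.4 and 89.1 CPM and 26.9, 24.1 and 67.8 CPM (-0.14 ± 0.63), and the groups overlapped for both. Of 15 genes of cell cycle inhibition and senescence, 1 rose and 1 fell (1.75% and 1.36% of all genes did), and neither was called with limma voom. Among them the cell cycle inhibitor gene Cdkn1a, used as a sign of senescence, had 0.51 ± 0.22 and did not pass (edgeR adjusted p = 0.244). No gene was called among 18 of complement, 25 of lysosomes, 17 of glycolysis or 12 of heat shock, where 3.10% of all genes were. At that share lists of this size can hold no call, so 0 calls do not show them unchanged. Their medians were -0.03, 0.13, 0.24 and -0.26, with 9, 19, 14 and 1 fold changes above 0 in the same order. The heat shock median was 0.52 in aged vehicle minus young vehicle cells and -0.72 between the aged groups, and the summed level of the 12 genes was 3278 to 5300.4 CPM in young vehicle, 3873 to 8544 CPM in aged vehicle and 3102 to 4137 CPM in aged bexarotene libraries, with overlap between all 3.

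Lists with members in both directions or with few calls complete the picture of the treated old cells. Of 23 phagocytic and scavenger receptors 3 rose, Axl, Clec7a and the Fc receptor gene Fcgr4 (1.03), and 2 fell, Mrc1 and the integrin gene Itgav (-0.44), where 1.75% of all genes rose and 1.36% fell. The 2 that fell became 1 with the replicate number as a block, with no filter and with only the 12 or the 6 libraries fitted, and 0 with limma voom, without the libraries numbered 1 and without any 1 of aged bexarotene replicates 1 to 3 or young vehicle replicates 1 and 2. Of 16 antioxidant and iron genes the ferritin heavy chain gene Fth1 (0.57) and the peroxidase gene Gpx1 (0.87) rose (1.75% of all genes did). Only 1 was called without aged bexarotene replicate 1 or 2, without young vehicle replicate 1 or 2 and without the libraries numbered 1. Of 26 nuclear genes of oxidative phosphorylation none was called, 25 fold changes were above 0 and the median was 0.17. Of 15 TGF-beta signalling genes Bmp2k, a kinase gene, and Itgav fell (1.36% of all genes did) and 2 fold changes were above 0, with a median of -0.27. The 2 calls became 0 without aged bexarotene replicate 3 or young vehicle replicate 1, and 1 without aged bexarotene replicate 1 or 2, without young vehicle replicate 2, without the libraries numbered 1, with limma voom, with no filter and with only the 12 or the 6 libraries fitted. Of 12 growth factors Csf1 alone rose (1.75% of all genes did). The count was 2 with the replicate block and 3 with DESeq2 or no filter, and 0 without aged bexarotene replicate 2 or 3, without young vehicle replicate 1 or 3, with limma voom and with the 12 libraries without stroke.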

How the data were processed

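Bulk RNA was sequenced from CD11b-selected brain cells with SMART-Seq V4 PLUS libraries, per the labels. The values used are raw counts per gene, whole numbers that the authors deposited in 1 table for all 18 libraries. The submitters' processing notes name the build GRCm39 and list STAR 2.7.10a, Trimmomatic 0.40, R 4.4.2 and GATK without their roles. Neither the annotation nor the strand setting is stated, so overlapping and antisense genes may share reads. The authors' own tables of comparisons were not used here. Symbols came from GENCODE M21 (GRCm38), used for names only, and matched 52029 of 57010 genes; the other 4981 held 0.339% of the counts and were tested under their identifiers.

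The young vehicle libraries held 7582511 to 11378554 counts and the aged bexarotene libraries 9346466 to 11852638. A floor of 3 counts equals 0.405 CPM in the shallowest of these libraries; floors and counting intervals cover counting error only, since reads are not independent molecules. Replicates differed by more than sampling noise (chi-square per degree of freedom 5.85 to 14.0). The labels call them biological replicates.

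Genes were filtered with filterByExpr and scaled by TMM, and 1 quasi-likelihood model was fitted to all 18 libraries in 6 groups, so that 12 residual degrees of freedom gave the spread (edgeR 4.0.16, limma 3.58.1, R 4.3.3). P-values were adjusted by Benjamini-Hochberg over all 15528 genes, and all adjusted p-values are from edgeR unless another tool is named. Fold changes are log2 values, first-named group minus second, with SE from the F statistic. CPM are scaled by the total over tested genes and the TMM factor (0.937 to 1.05). Alternatives were DESeq2 1.42.0, limma voom, RLE scaling, no filter, fewer libraries and a replicate block. Same-numbered aged bexarotene and young vehicle libraries deviated together (correlations 0.275, 0.284 and 0.11), which takes the pairing from the data, since the labels only number the replicates.

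Named genes were the 10 largest called changes of each sign whose groups did not overlap and whose higher group averaged 10 CPM or more, the 4 lowest p of lists with at least 3 called members, up to 8 genes of each sign that followed age or bexarotene in the second comparison, those called in opposite directions by age and by treatment of aged mice, and a fixed set. Gene models with no established name and some near-identical copies were left out, and some other genes of the rule are not reported here. Other list members and Nupr1's aged contrast are named as examples chosen after their values were seen. The comparison, the 43 lists and the rule were chosen with earlier results of these data known.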

Additional observations from a re-analysis of the deposited data

How the results depend on the processing

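Of the 71 named genes that were called, 44 kept their call under all 14 alternatives and none changed sign; 21 lost it without the libraries numbered 1 and 12 with limma voom (among them Cxcl13, Cst7, Cxcl14, H2-Q7 and Chst2), and the cause was not tested. The 482 called genes became 793 with DESeq2 (439 higher, 354 lower), 318 with limma voom (163 higher), 931 with no filter on low counts (556 higher, 375 lower) and 173 without the libraries numbered 1 (126 higher, 47 lower). With the replicate block, which uses the pairing of the numbers, they were 579, and Mrc1 was the only named gene whose call the block changed. Leaving out each library in turn gave 209 to 414 called genes, 130 to 238 higher and 68 to 176 lower. The 552 genes called in aged vehicle minus young bexarotene cells became 966 with DESeq2 and 1165 with no filter. They were 228 without the libraries numbered 1, 703 with the replicate block and 254 to 584 without single libraries. In those 2 groups same-numbered libraries deviated together for replicates 1 and 2 (correlations 0.323 and 0.224) but not for replicate 3 (-0.033). Of the 14 named genes not called, 6 were called under some alternative, and 3 with fold changes near 0 or a wide spread changed sign. Tmem119 was at -0.04 without the libraries numbered 1 and at -0.08 to 0.12 without single libraries. Tnf was at 0.01 with DESeq2, RLE scaling, no filter, 12 libraries or 6 libraries, at 0.02 with the block and at -0.19 to 0.17 without single libraries. Il1b was at 0.34 with limma voom and at -0.78 to 0.98 without single libraries. With 3 libraries per group, depth and spread leave small changes of low genes undetectable.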
